A study of Mus musculus with 12 samples.

Results

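The interferon-stimulated genes Ifit1, Ifit2, Ifit3, Isg15, Irf7, Oasl2, Rsad2, Gbp2 and Usp18 were followed in mouse hearts infused with angiotensin II (Ang II) and treated with EHP-101 or losartan. They are 9 of the 47729 genes in the count table. They were taken by name, through their Ensembl identifiers, and every one had enough reads to be tested. Each heart library was RNA sequencing of poly(A) RNA from male C57BL/6 mice of 8 weeks, with 12 libraries in 4 groups of 3. Control mice carried subcutaneous osmotic pumps with saline for 28 days, and the other 3 groups carried pumps with Ang II, the hormone of the renin-angiotensin system, which constricts vessels and promotes scarring of heart muscle. Over the last 2 weeks, 1 Ang II group was given EHP-101 by mouth at 20 mg/kg and 1 was given losartan in the drinking water at 0.6 g/L. The design names vehicle as the other treatment. The Ang II group with no named drug was taken to have received it, and whether Control did is not stated, so vehicle may differ between these groups. EHP-101 is an oral formulation of a cannabidiol derivative with activity at PPARγ and at CB2, a nuclear and a cannabinoid receptor. Losartan is an antagonist of AT1, the main receptor of Ang II. The groups are called Control, Ang II, EHP-101 and losartan here, and the latter 2 received Ang II as well. Nothing in the labels tells if a group's 3 replicates were separate animals, so p-values rest on the spread among the 3 libraries of a group, which may be technical.

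Interferons are secreted by cells that sense foreign or misplaced nucleic acid. Type I interferons bind the receptor pair IFNAR1 and IFNAR2, whose kinases JAK1 and TYK2 start a signal that ends in a complex containing STAT2 and IRF9, which binds the interferon-stimulated response element (ISRE) in promoters. Interferon gamma acts through its own receptor, and its target promoters carry the GAS element. The genes switched on encode proteins that block viral translation and replication, present antigen, and tune the pathway itself, and in heart tissue they are also known from sterile injury, where macrophages are a main source.

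The ISRE core is GAAA, any 2 bases and GAAA again. RefSeq promoter windows (GRCm38.p6) run from 250 bases before to 50 bases after the RefSeq start. Only the 250 bases before the start were searched, on both strands. They held the core in 5 of the 8 genes that had a window. Across all 27025 genes with a window, 3.46% held the same core in these bases. The 5 are printed here 5′ to 3′ on the gene's strand, because they are the sequence feature that these genes have in common, with the match in capitals. For Ifit1, Ifit3, Isg15 and Rsad2 only the part before the first annotated exon is shown, and for Gbp2 the 30 bases around a match that lies inside its annotated first exon.
Ifit1, chr19:34640639-34640870, + strand: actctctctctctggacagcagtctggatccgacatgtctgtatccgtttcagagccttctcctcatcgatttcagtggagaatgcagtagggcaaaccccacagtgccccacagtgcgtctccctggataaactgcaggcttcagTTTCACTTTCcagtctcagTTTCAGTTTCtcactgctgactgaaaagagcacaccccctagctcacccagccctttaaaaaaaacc
Ifit3, chr19:34583279-34583528, + strand: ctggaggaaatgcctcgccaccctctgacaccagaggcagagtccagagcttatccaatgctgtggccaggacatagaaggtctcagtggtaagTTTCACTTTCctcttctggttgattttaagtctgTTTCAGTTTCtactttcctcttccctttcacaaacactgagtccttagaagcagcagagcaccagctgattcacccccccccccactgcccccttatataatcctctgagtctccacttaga
Isg15, chr4:156200819-156201068, - strand: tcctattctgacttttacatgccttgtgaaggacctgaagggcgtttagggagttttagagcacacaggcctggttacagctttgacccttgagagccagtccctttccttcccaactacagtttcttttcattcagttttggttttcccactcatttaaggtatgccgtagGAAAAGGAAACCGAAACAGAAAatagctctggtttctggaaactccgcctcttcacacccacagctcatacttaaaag
Rsad2, chr12:26456453-26456702, - strand: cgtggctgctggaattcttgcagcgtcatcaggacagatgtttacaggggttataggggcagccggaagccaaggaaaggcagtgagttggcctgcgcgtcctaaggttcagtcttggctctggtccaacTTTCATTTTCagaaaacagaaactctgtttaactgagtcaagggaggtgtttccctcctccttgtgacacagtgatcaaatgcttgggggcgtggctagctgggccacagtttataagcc
Gbp2, chr3:142620594-142620623, + strand: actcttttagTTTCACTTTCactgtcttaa
Ifit1 and Ifit3 each held the same pair of matches, TTTCACTTTC and TTTCAGTTTC, which read as the core on the other strand. In Isg15, 3 matches overlapped in a single run. The searched bases of Ifit2, Irf7 and Oasl2 held no match, which says only that these letters are not in those 250 bases. The GAS letters TTCNNNGAA were found in the searched bases of 1 of the 8 genes, Ifit2, against 8.13% of all genes with a window.

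All 9 genes are protein-coding in the GENCODE M21 annotation of GRCm38. Ifit2 (ENSMUSG00000045932), Ifit3 (ENSMUSG00000074896) and Ifit1 (ENSMUSG00000034459) lie in this order on the + strand of chromosome 19, at chr19:34550694-34576419, chr19:34583531-34588731 and chr19:34640871-34650009. The other 6 are on 6 different chromosomes. Isg15 (ENSMUSG00000035692) is at chr4:156199424-156200818 and Irf7 (ENSMUSG00000025498) at chr7:141262706-141266481. Oasl2 (ENSMUSG00000029561) is at chr5:114896936-114912234 and Rsad2 (ENSMUSG00000020641) at chr12:26442746-26456452. Gbp2 (ENSMUSG00000028270) is at chr3:142620602-142638008 and Usp18 (ENSMUSG00000030107) at chr6:121245906-121270917. Reads of Ifit3 are the least certain, because 51.2% of the 50-base stretches in its transcripts are also found in its close copy Ifit3b. For the other members this share was at most 7.13%, in Ifit1. The library kit keeps no strand, and exons of Irf7, Gbp2 and Usp18 overlap a gene on the other strand by 45, 24 and 124 bases.

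Library totals ran from 22155418 to 23766752 counts in Control, 23585132 to 24040516 in Ang II, 22745721 to 23521895 in EHP-101 and 22574756 to 23730465 in losartan. Control 2 stood apart from the other libraries. It scored -84.37 on the first principal component of log2 expression, which held 35.27% of the variance, against -12.72 to 32.41 in the other 11. Each comparison that uses the Control group is therefore also given without it where that changes a direction or a call. Levels below are CPM, the reads of a gene per 1000000 reads of a library size scaled by TMM, and log2 fold changes come from edgeR's quasi-likelihood fit to all 12 libraries, with p-values adjusted by Benjamini-Hochberg over the 15336 genes tested.

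None of the 9 genes passed the adjusted threshold of 0.05 in any of the 6 comparisons between groups or in the test of any difference among the 4 groups (edgeR quasi-likelihood). Of all tested genes, 0.515% were called higher and 0.0261% lower for Ang II against Control, 0.3% higher and 0.0978% lower for EHP-101 against Control, and 0.189% in the test among the 4 groups. The share called was 0 in both directions in the other 4 comparisons. DESeq2 called 1 member, Rsad2, and limma-voom with sample quality weights called 3, Rsad2, Ifit1 and Ifit2, for Ang II against Control, while limma-voom without weights called 0. At an unadjusted p under 0.05, Rsad2 and Ifit2 were higher in Ang II than in Control. Against Ang II, Ifit1 and Rsad2 were lower under EHP-101, and Ifit1 and Ifit3 under losartan. Against Control, Isg15 and Usp18 were lower under EHP-101, as were 8.15% of all tested genes. Under losartan Usp18 was lower than in Control, as were 5.16% of all tested genes, and Ifit2 and Rsad2 were higher, as were 5.54%. No member reached an unadjusted p of 0.05 for EHP-101 against losartan, and in the test among the 4 groups Ifit1 and Rsad2 did, as did 13.1% of all tested genes. Their values follow by role.

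**Figure D1:**
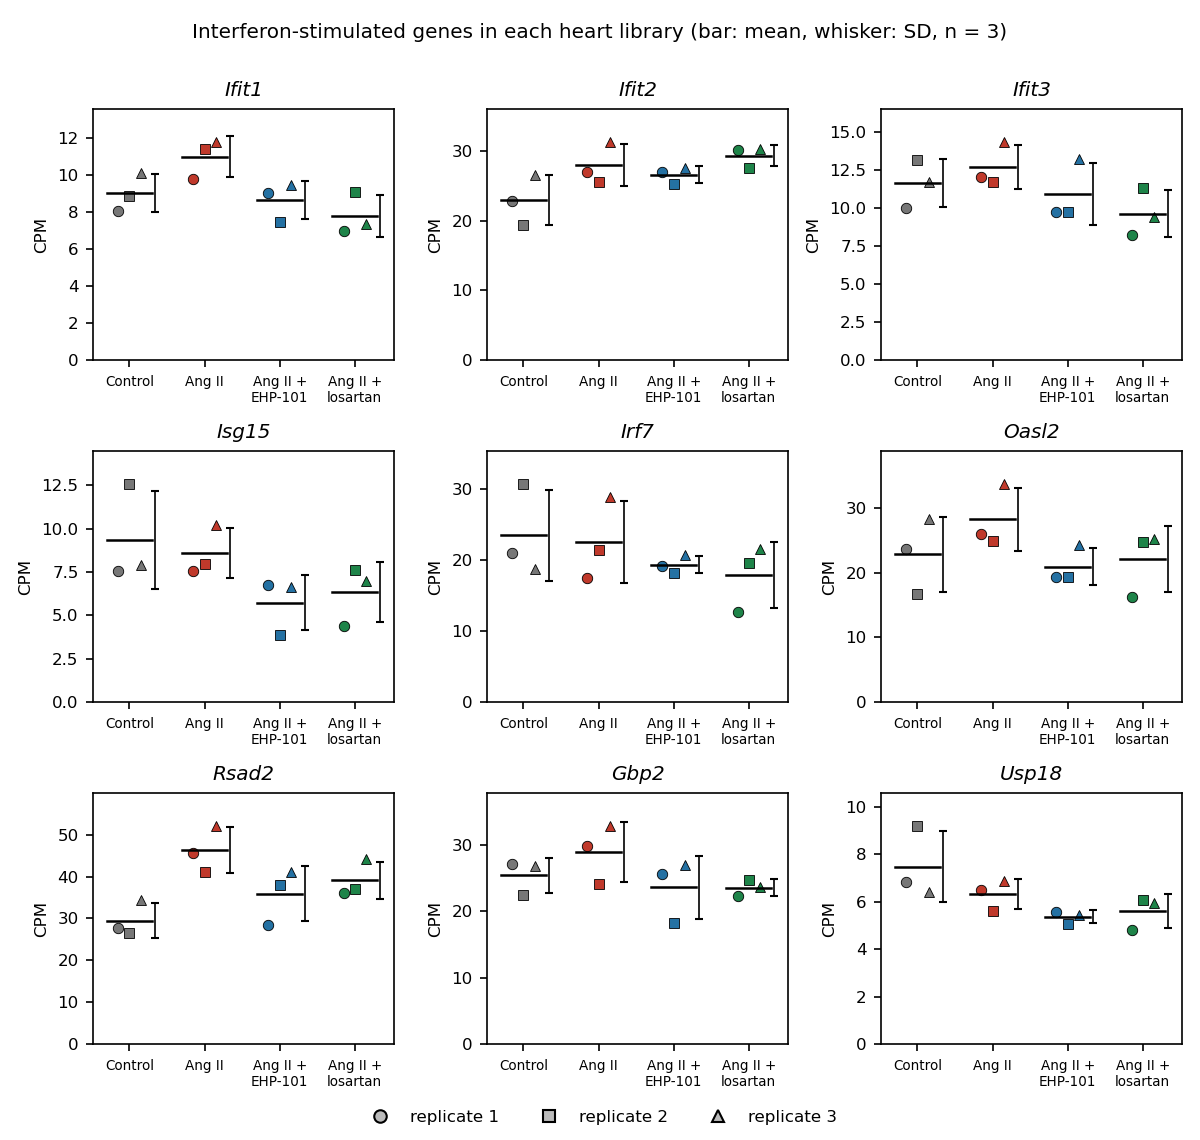
CPM of each gene (vertical axis, starting at 0) in each of the 12 heart libraries by group, with 1 point per library, a bar at the group mean and a whisker of 1 SD (n = 3). The Ang II points of Rsad2 all lie above the Control points, Ang II 3 is the highest library for 6 genes, and the spread within Control is wide for Isg15, Irf7 and Usp18 because Control 2 is high.

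Rsad2 encodes viperin, a radical-SAM enzyme that makes a chain-terminating nucleotide and blocks the replication of many viruses. Its CPM was 27.6, 26.6 and 34.3 in Control, 45.7, 41.1 and 52.2 in Ang II, 28.5, 38.0 and 41.1 in EHP-101, and 36.0, 37.1 and 44.1 in losartan. Every Ang II library was above every Control library, and of all tested genes 12.3% showed the same separation upwards. The mean was 46.3 ± 5.55 CPM in Ang II against 29.5 ± 4.19 in Control (SD, n = 3), a log2 fold change of 0.65 ± 0.16 (SE) or 1.57-fold, with a 95% interval of 1.23 to 2.0. The unadjusted p was 0.00142 and the adjusted p 0.106 in edgeR. This is the 1 member that DESeq2 called in this comparison, at 0.64 on the log2 scale with an adjusted p of 0.0167. Without Control 2 the log2 fold change was 0.58 with an adjusted p of 0.186 in edgeR.
Under EHP-101 Rsad2 was 0.37 ± 0.16 (SE) lower than in Ang II on the log2 scale, with an unadjusted p of 0.0380 and an adjusted p of 0.644 in edgeR, and the log2 fold change was -0.23 without EHP-101 1. EHP-101 1, at 28.5 CPM, was as low as the Control libraries, and EHP-101 3, at 41.1 CPM, was just under the lowest Ang II library. Losartan libraries overlapped the Ang II range, and their mean of 39.1 ± 4.41 CPM lay between Control and Ang II, with a log2 fold change against Ang II of -0.24 and an adjusted p of 0.736 in edgeR, or -0.15 without Ang II 3. Against Control the losartan libraries were all higher, by 0.41 with an adjusted p of 0.456 in edgeR, as were those of 8.27% of all tested genes.

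The IFIT proteins bind viral RNA that lacks host cap marks and hold back its translation. Ifit1 read 8.06, 8.88 and 10.1 CPM in Control, 9.76, 11.4 and 11.8 in Ang II, 9.01, 7.48 and 9.46 in EHP-101, and 6.97, 9.07 and 7.34 in losartan. All libraries of both treated groups lay below all Ang II libraries. The mean was 7.79 ± 1.12 CPM under losartan and 11.0 ± 1.09 CPM in Ang II (SD, n = 3). The log2 fold change against Ang II was -0.50 ± 0.16 (SE), a ratio of 0.709 with a 95% interval of 0.562 to 0.896, an unadjusted p of 0.00739 and an adjusted p of 0.365 in edgeR. Under EHP-101 it was -0.35 ± 0.15 (SE), with an adjusted p of 0.670 in edgeR. Between Ang II and Control the groups overlapped, with a log2 fold change of 0.29 ± 0.15 (SE) and an adjusted p of 0.345 in edgeR.
Ifit3 showed a like order at levels of 10.02, 13.2 and 11.7 CPM in Control, 12.1, 11.8 and 14.4 in Ang II, 9.77, 9.73 and 13.3 in EHP-101, and 8.23, 11.3 and 9.40 in losartan. Only losartan separated from Ang II, with a log2 fold change of -0.40 ± 0.17 (SE) and an adjusted p of 0.548 in edgeR. Because of its shared sequence, part of this signal may belong to Ifit3b.
Ifit2 departed from its 2 neighbours. Its CPM was 22.9, 19.4 and 26.6 in Control, 27.0, 25.5 and 31.3 in Ang II, 27.0, 25.2 and 27.5 in EHP-101, and 30.1, 27.6 and 30.2 in losartan. Losartan had the highest mean of the 4 groups, 29.3 ± 1.5 CPM, and all its libraries were above all Control libraries, with a log2 fold change of 0.35 ± 0.13 (SE) and an adjusted p of 0.456 in edgeR. That difference was 0.25 without Control 2. Ang II differed from Control by 0.28 ± 0.13 (SE), with an unadjusted p of 0.0467 and an adjusted p of 0.278 in edgeR, and by 0.18 without Control 2. Ifit2 was the 1 member with a value above 0 for losartan against Ang II, 0.07, and its interval on the log2 scale ran from -0.21 to 0.34. Whether Ifit2 differs from Ifit1 and Ifit3 in its response was not tested.

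Oasl2 encodes a relative of the oligoadenylate synthetases with ubiquitin-like domains. Its CPM was 23.6, 16.7 and 28.2 in Control, 25.9, 24.9 and 33.7 in Ang II, 19.2, 19.3 and 24.2 in EHP-101, and 16.2, 24.8 and 25.2 in losartan. The EHP-101 libraries were below all Ang II libraries, with a log2 fold change of -0.43 ± 0.21 (SE) and an adjusted p of 0.755 in edgeR. Without Ang II 3 that difference was -0.28. Losartan 1 was the lowest of the 12 libraries, losartan 2 lay just under the Ang II range and losartan 3 inside it.
Gbp2 encodes a guanylate-binding GTPase that is induced most by interferon gamma and attacks the vacuoles of intracellular microbes. It read 27.1, 22.4 and 26.9 CPM in Control, 29.8, 24.1 and 32.9 in Ang II, 25.6, 18.2 and 27.1 in EHP-101, and 22.3, 24.8 and 23.7 in losartan. All 4 groups overlapped in every pair, and the log2 fold change was -0.29 under EHP-101 and -0.30 under losartan against Ang II. It was -0.14 under EHP-101 without EHP-101 2, and -0.19 under either treatment without Ang II 3.

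Isg15 encodes a ubiquitin-like protein that is attached to other proteins during the interferon response, and Usp18 encodes the protease that removes it and also blocks signalling at IFNAR2. Isg15 read 7.56, 12.6 and 7.88 CPM in Control, 7.56, 7.97 and 10.2 in Ang II, 6.72, 3.88 and 6.61 in EHP-101, and 4.37, 7.61 and 7.00 in losartan. Every EHP-101 library was below every Ang II and every Control library. Isg15 had the largest log2 difference of the 9 genes for EHP-101 against Ang II, -0.58 ± 0.27 (SE), with an adjusted p of 0.715 in edgeR, and it had 83 to 273 reads per library. That difference was -0.36 without EHP-101 2. Against Control its difference was -0.70 ± 0.27 (SE), with an unadjusted p of 0.0254 and an adjusted p of 0.242 in edgeR, and it was -0.43 without Control 2.
Usp18 read 6.81, 9.20 and 6.42 CPM in Control, 6.49, 5.61 and 6.86 in Ang II, 5.58, 5.05 and 5.43 in EHP-101, and 4.79, 6.06 and 5.95 in losartan. It was lower under both treatments than in every Control library, with log2 fold changes of -0.48 ± 0.17 and -0.41 ± 0.17 (SE) and adjusted p-values of 0.213 and 0.456 in edgeR, and the differences were -0.30 and -0.23 without Control 2. Separation downwards from Control was seen for 10.4% of all tested genes under EHP-101 and for 7.09% under losartan.
Irf7 encodes the transcription factor that amplifies type I interferon production once it is induced. Its CPM was 21.004, 30.8 and 18.7 in Control, 17.5, 21.4 and 28.9 in Ang II, 19.2, 18.2 and 20.7 in EHP-101, and 12.6, 19.5 and 21.6 in losartan. The groups overlapped in every pair, and the 1 high library in each of Control and Ang II set the width of those groups.
For Isg15, Irf7 and Usp18 the high value in Control was that of Control 2. With it, these were the 3 members below 0 for Ang II against Control, at -0.12, -0.05 and -0.24 on the log2 scale. Without it, Isg15 and Irf7 were above 0, at 0.15 and 0.19, and Usp18 was at -0.07, so that 8 of 9 members were above 0 in place of 6 of 9. Scaling by library size alone also put Isg15 and Irf7 above 0, at 0.09 and 0.15, and with that scaling the median of all tested genes moved up by 0.17.

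**Figure D2:**
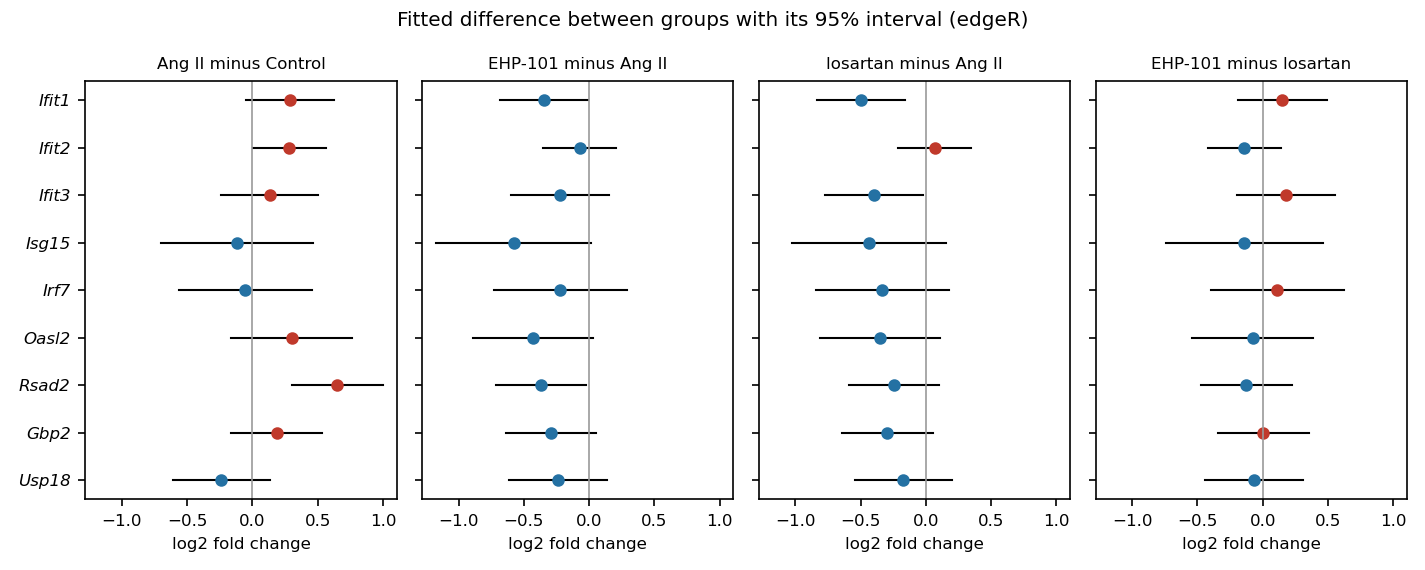
Fitted log2 fold change of each gene (point; red above 0, blue below 0) with its 95% interval (line) in 4 comparisons, from edgeR on 3 libraries a group. The interval for Rsad2 between Ang II and Control lies farthest from 0, all 9 points are below 0 for EHP-101 against Ang II, 8 of 9 are for losartan against Ang II, and all 9 intervals of EHP-101 against losartan include 0.

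Read as a group, the members had a median log2 fold change of 0.18 for Ang II against Control, with 6 of 9 above 0, where the median of all tested genes was -0.00068 and 49.9% were above 0. For EHP-101 against Ang II the median was -0.29 and all 9 were below 0, against 50% of all tested genes. For losartan against Ang II the median was -0.33 and 8 of 9 were below 0, against 49.4% of all tested genes. Groups did not overlap for 5 members in the EHP-101 comparison, Ifit1, Isg15, Oasl2, Rsad2 and Usp18, where 9.74% of all tested genes were lower without overlap. In the losartan comparison they did not overlap for 2, Ifit1 and Ifit3, against 10.5% of all tested genes. An unadjusted p under 0.05 with a lower value was found in 5.11% and 6.14% of all tested genes in these comparisons, and with a higher value in 9.09% for Ang II against Control. Leaving out any 1 library kept 8 or 9 members below 0 under EHP-101, with medians of -0.40 to -0.19, and 8 under losartan, with medians of -0.41 to -0.19. Without Ang II 3 the 3 medians were 0.09, -0.19 and -0.19 in the order given above, and without losartan 1 that of losartan was -0.19. All 3 comparisons use the same Ang II libraries, so a high Ang II library lowers both treatments at once, and the members' values for them are not independent. Members are also not replicates of each other, since they share the same libraries.

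EHP-101 and losartan act on different targets, and one was dosed by mouth while the other was taken with the drinking water. Log2 fold changes of EHP-101 against losartan ran from -0.14 in Isg15 and Ifit2 to 0.18 in Ifit3, and the adjusted p-values from 0.970 to 0.999 in edgeR. The interval was narrowest for Ifit2, at -0.42 to 0.14, and widest for Isg15, at -0.74 to 0.46, so differences of that size between the treatments are within these intervals. Ifit2 was the 1 member whose groups did not overlap, with EHP-101 below losartan, as were 6.74% of all tested genes.

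Across the 12 libraries most members varied together. Each member's log2 CPM was standardised, and the mean of the 9 gave a joint level for each library. Ang II 3 stood at the top with 1.44, followed by Ang II 1 at 0.41, Control 3 at 0.25 and Ang II 2 at 0.24. EHP-101 2 at -0.95 and losartan 1 at -1.11 stood at the bottom, while EHP-101 3 at 0.22 and losartan 2 at 0.08 were within the range of Control, which ran from -0.25 to 0.25. Each treated group thus held libraries inside and below the range of Control.
The correlation of a member with the mean of the other 8 was 0.80 for Ifit3, 0.78 for Ifit1, 0.75 for Oasl2 and 0.73 for Gbp2, then 0.68 for Isg15 and 0.56 for Irf7. It was 0.38 for Usp18, 0.35 for Rsad2 and -0.0017 for Ifit2. Over the 36 pairs, Pearson's r had a median of 0.41 and reached 0.88 for Isg15 with Usp18 and -0.61 for Ifit2 with Usp18. These are descriptions over 12 libraries, which share their groups and Control 2.

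**Figure D3:**
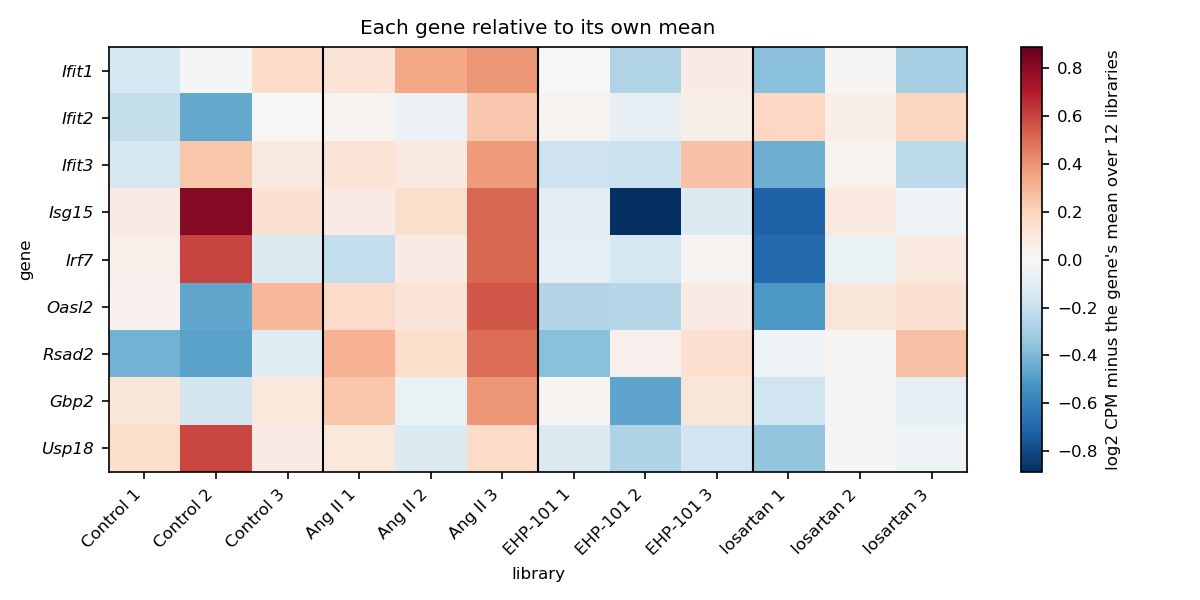
Log2 CPM of each gene (rows) in each library (columns) minus the gene's mean over the 12 libraries, with red above and blue below that mean. Ang II 3 is red in all 9 rows and losartan 1 blue in all but Ifit2, while Control 2 is red for Isg15, Irf7 and Usp18 and blue for Ifit2, Oasl2, Rsad2 and Gbp2.

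Per kilobase of exon, the mean level over the 12 libraries was highest for Gbp2 at 10.1 CPM per kb, Isg15 at 9.92 and Rsad2 at 8.70. Ifit2 followed at 6.80, Ifit3 at 6.44 and Irf7 at 5.52, then Oasl2 at 3.69, Ifit1 at 3.43 and Usp18 at 2.22. With SDs over libraries of 1.51 for Gbp2, 3.05 for Isg15 and 1.79 for Rsad2, the 3 highest levels did not differ beyond their spread, and neither did those of Oasl2 and Ifit1. The highest library exceeded the lowest by 1.62 times for Ifit2 and by 3.25 times for Isg15, the narrowest and widest ranges of the 9.

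Among protein-coding genes with a mean of at least 1 CPM, the 10 whose log2 CPM followed the members' joint level most closely over the 12 libraries were ranked by Pearson's r, with the members left out. Lif, a cytokine of the interleukin-6 family, came first at 0.93, followed by Bcl3 at 0.90, Aplp1 at 0.89 and Ifit3b at 0.89. Ifi47, an immunity-related GTPase, and Casp8, the initiator caspase of death receptors, were at 0.89, and Phf11d, Pheta2, Thy1 and Basp1 at 0.87. Mean CPM of Lif was 1.14 in Control, 1.75 in Ang II, 0.978 under EHP-101 and 0.856 under losartan, and that of Bcl3 was 4.25, 6.21, 4.05 and 4.01. Ifit3b shares sequence with Ifit3, so reads may be shared between them.

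The upstream end of the pathway was almost silent in these libraries. Of 20 interferon genes in the table, 14 had no read in any library and the other 6 had 12 reads in all, with at most 1 read of any gene in a library. Ifnb1, the early type I interferon of most cells, had 1 read, in losartan 2. Ifng, the interferon of T and NK cells, had 1 read in each of the 3 Ang II libraries, EHP-101 1 and losartan 1, and 0 in Control. A count of 0 allows up to 3 reads, or 0.112 to 0.161 CPM depending on the library, so the ligands could not be compared at this depth.
Transcripts of the receptors were present in all libraries. Ifnar1 read 37.6, 31.2 and 37.6 CPM in Control, 38.2, 38.8 and 44.0 in Ang II, 36.1, 28.5 and 36.0 in EHP-101, and 36.9, 37.1 and 35.8 in losartan. Ifnar2 read 19.8, 22.01 and 17.4 in Control, 19.5, 21.4 and 22.7 in Ang II, 17.3, 17.5 and 17.6 in EHP-101, and 16.7, 17.8 and 17.7 in losartan. Both subunits were below Ang II without overlap in both treated groups, as were 9.74% of all tested genes under EHP-101 and 10.5% under losartan. Log2 fold changes for Ifnar1 and Ifnar2 were -0.27 and -0.28 in EHP-101 and -0.14 and -0.29 in losartan, with adjusted p-values from 0.496 to 0.840 in edgeR. The 6 receptor genes had medians of 0.06 under EHP-101 and -0.04 under losartan against Ang II, with 3 and 2 of 6 above 0. Ifnar2 shares exon bases with the annotated read-through gene Gm21970, so its level is uncertain to that extent. Of the 6 receptor genes none was called in these 2 comparisons or for Ang II against Control (edgeR). In each of the 3, 1 was lower at an unadjusted p under 0.05. Of all tested genes, 5.11% and 6.14% were lower at that p under EHP-101 and losartan against Ang II. The share lower at that p for Ang II against Control is not given. Counts of lower genes in that comparison, here and below, therefore have no background beside them.
None of the 6 JAK-STAT transducers was called in these comparisons (edgeR), and 0 had an unadjusted p under 0.05. Against Ang II their median was -0.17 under EHP-101, with 1 of 6 above 0. Under losartan it was -0.10, with 2 of 6 above 0 and values up to 0.25. Stat2 differed from Ang II by -0.17 under EHP-101 and by -0.25 under losartan on the log2 scale. Irf9 read 30.7, 30.3 and 30.7 CPM in Control, 26.5, 27.0 and 30.9 in Ang II, 26.0, 22.02 and 25.1 in EHP-101, and 21.2, 25.4 and 27.0 in losartan. It was thus lower in both treated groups than in all Control libraries, while its difference between Ang II and Control was -0.12 with an adjusted p of 0.599 in edgeR.

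Sensors and adaptors of nucleic acid, which start interferon production, had differences of mostly the same sign as the members, and none was called (edgeR). Of 18, 16 were above 0 for Ang II against Control with a median of 0.22, and 15 and 16 were below 0 under EHP-101 and losartan against Ang II with medians of -0.24 and -0.14. At an unadjusted p under 0.05, 2 were higher and 1 lower for Ang II against Control, and 5 and 2 were lower under EHP-101 and losartan. Of all tested genes, 9.09% were higher for Ang II against Control, and 5.11% and 6.14% were lower under EHP-101 and losartan. Zbp1, a sensor of Z-form nucleic acid, read 2.92, 2.21 and 2.5 CPM in Control, 3.04, 2.74 and 5.36 in Ang II, 1.69, 1.68 and 1.79 in EHP-101, and 1.67, 2.93 and 1.90 in losartan. Its log2 fold change for EHP-101 against Ang II was -1.11 ± 0.29 (SE), with an adjusted p of 0.341 in edgeR. Unc93b1, which carries Toll-like receptors to endosomes, read 33.5, 31.9 and 40.3 CPM in Ang II and 26.0, 22.5 and 23.4 under EHP-101, a log2 fold change of -0.55 ± 0.13 (SE) with an adjusted p of 0.328 in edgeR and of 0.0451 in DESeq2. Under losartan against Ang II it was -0.43, with an adjusted p of 0.349 in edgeR. For Ang II against Control it was 0.22, with an adjusted p of 0.383 in edgeR. Limma-voom with sample quality weights gave adjusted p-values of 0.0172 and 0.0131 for these 2 comparisons.

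The other type I interferon-induced genes form the list closest in function to the members. Of its 36 genes, 25 were above 0 for Ang II against Control, with a median of 0.16, and 6 had an unadjusted p under 0.05 and were higher, against 9.09% of all tested genes. Under EHP-101 against Ang II, 34 were below 0 with a median of -0.26, 18 had groups that did not overlap and 7 had an unadjusted p under 0.05, against 9.74% and 5.11% of all tested genes. Under losartan 32 were below 0 with a median of -0.21, 7 had groups that did not overlap and 4 had an unadjusted p under 0.05, against 10.5% and 6.14%. None of the 36 was called in these comparisons (edgeR). Leaving out any 1 library kept 32 to 34 below 0 under EHP-101 and 24 to 33 under losartan. The median for Ang II against Control was 0.07 without Ang II 3, 0.10 without Control 2 and 0.27 without Control 3, and that for losartan was -0.11 without Ang II 3 and -0.10 without losartan 1.
Mx1, a gene of the GTPase family, read 2.05, 0.969 and 1.34 CPM in Control, 2.85, 2.91 and 3.04 in Ang II, 1.48, 1.36 and 1.36 in EHP-101, and 1.30, 2.05 and 1.39 in losartan. Only its transcript was measured. All Ang II libraries were above all others. Taken singly, Ang II was above Control without overlap for 12.3% of all tested genes, above EHP-101 for 9.74% and above losartan for 10.5%. The share with all 3 at once is not given. The log2 fold change of Mx1 was 1.0 ± 0.27 (SE) for Ang II against Control, -1.06 ± 0.27 under EHP-101 and -0.89 ± 0.27 under losartan against Ang II, with adjusted p-values of 0.128, 0.334 and 0.349 in edgeR and of 0.0368 in DESeq2 for the first.
Ifi44 read 8.85, 7.59 and 11.0 CPM in Control, 10.4, 10.1 and 12.8 in Ang II, 9.60, 6.87 and 10.1 in EHP-101, and 5.16, 9.87 and 14.0 in losartan. Losartan libraries spanned the lowest and the highest of the 12 values. Oas1a, an oligoadenylate synthetase, ran from 3.17 to 5.87 CPM in Control, 3.23 to 4.39 in Ang II, 2.62 to 3.0 in EHP-101 and 2.09 to 3.26 in losartan, with its highest value in Control 2. Cmpk2, the nucleotide kinase gene beside Rsad2, read 17.0, 13.6 and 14.8 CPM in Ang II, 11.6, 10.1 and 10.9 under EHP-101 and 15.2, 18.5 and 14.8 in Control. Its difference between Ang II and Control was -0.09 on the log2 scale with an adjusted p of 0.776 in edgeR, and 0.017 without Control 2. Under EHP-101 against Ang II it was -0.48 ± 0.15 (SE) with an adjusted p of 0.461 in edgeR.

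Genes that act with ISG15 conjugation, Uba7, Ube2l6, Herc6 and Trim25, were not called in the comparisons with Ang II (edgeR), with medians of 0.20, -0.15 and -0.12 in the same order and 0 at an unadjusted p under 0.05. Guanylate-binding proteins and immunity-related GTPases, the family of Gbp2, had a median of -0.02 for Ang II against Control, with 8 of 16 above 0. Under EHP-101 14 of 16 were below 0 with a median of -0.20, and under losartan 9 of 16 with a median of -0.02. None was called (edgeR), and 1 had an unadjusted p under 0.05, lower for Ang II against Control. Among genes with a promoter window, the searched bases held the ISRE core in 8 of 9 of this family and in 11 of 26 other type I genes.
Interferon-gamma chemokines, class I presentation and immunoproteasome genes had 17 of 18 tested. Their medians were 0.06, -0.33 and -0.22, with 13 and 15 of 17 below 0 under EHP-101 and losartan and none called (edgeR). At an unadjusted p under 0.05, 2 were higher and 1 lower for Ang II against Control, and 5 and 3 were lower under EHP-101 and losartan. The shares of all tested genes were 9.09% higher for Ang II against Control, and 5.11% and 6.14% lower under EHP-101 and losartan. Cxcl10, a chemokine that draws T cells, read 0.793, 0.700 and 0.668 CPM in Control, 1.22, 1.04 and 2.51 in Ang II, 0.423, 0.187 and 0.832 in EHP-101, and 0.279, 0.627 and 0.379 in losartan. All Ang II libraries were above all others. Taken singly, these separations from Control, EHP-101 and losartan were seen for 12.3%, 9.74% and 10.5% of all tested genes. Log2 fold changes of Cxcl10 were the widest of the pathway genes named, at 1.14 ± 0.46, -1.71 ± 0.48 and -1.87 ± 0.49 (SE), with adjusted p-values of 0.246, 0.409 and 0.294 in edgeR. They rest on 4 to 67 reads a library, and the first was 0.65 without Ang II 3. Irf8, a transcription factor of myeloid cells, read 6.18, 8.99 and 7.43 CPM in Control, 11.3, 9.10 and 11.7 in Ang II, 6.51, 6.78 and 7.44 in EHP-101, and 6.00, 7.28 and 8.90 in losartan. Its adjusted p-values were 0.214, 0.409 and 0.414 in edgeR.

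The brakes of the pathway held the 1 pathway gene that edgeR called in the 3 comparisons that use Ang II. Socs3, a suppressor of cytokine signalling that is induced above all by interleukin-6 family cytokines, read 7.10, 7.70 and 6.84 CPM in Control, 11.999, 11.4 and 13.5 in Ang II, 7.82, 10.1 and 8.76 in EHP-101, and 7.53, 6.27 and 5.82 in losartan. It rose under Ang II by 0.77 ± 0.15 (SE) on the log2 scale, with an adjusted p of 0.0436 in edgeR. The call was lost without any 1 of 8 libraries, with an adjusted p of up to 0.224 without Ang II 3 in edgeR. Without Control 2 the log2 fold change was 0.82 with an adjusted p of 0.0857 in edgeR. With 1 library left out, the log2 fold change stayed between 0.71 and 0.82. It was also lost with the replicate block (0.0799 in edgeR) and with only the 2 groups (0.135 in edgeR). In the test among the 4 groups the adjusted p of Socs3 was 0.0567 in edgeR. Under EHP-101 and losartan Socs3 was below Ang II without overlap, as were 9.74% and 10.5% of all tested genes. The log2 fold changes were -0.47 and -0.91, with adjusted p-values of 0.438 and 0.166 in edgeR and of 9.54e-05 for losartan in DESeq2. Of the 11 brakes and nucleases, 10 were tested. Trex1 was listed at 0 in all 12 libraries, and its whole annotated exon is shared with Atrip on the same strand, so reads of the 2 genes could not be told apart.

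**Figure D4:**
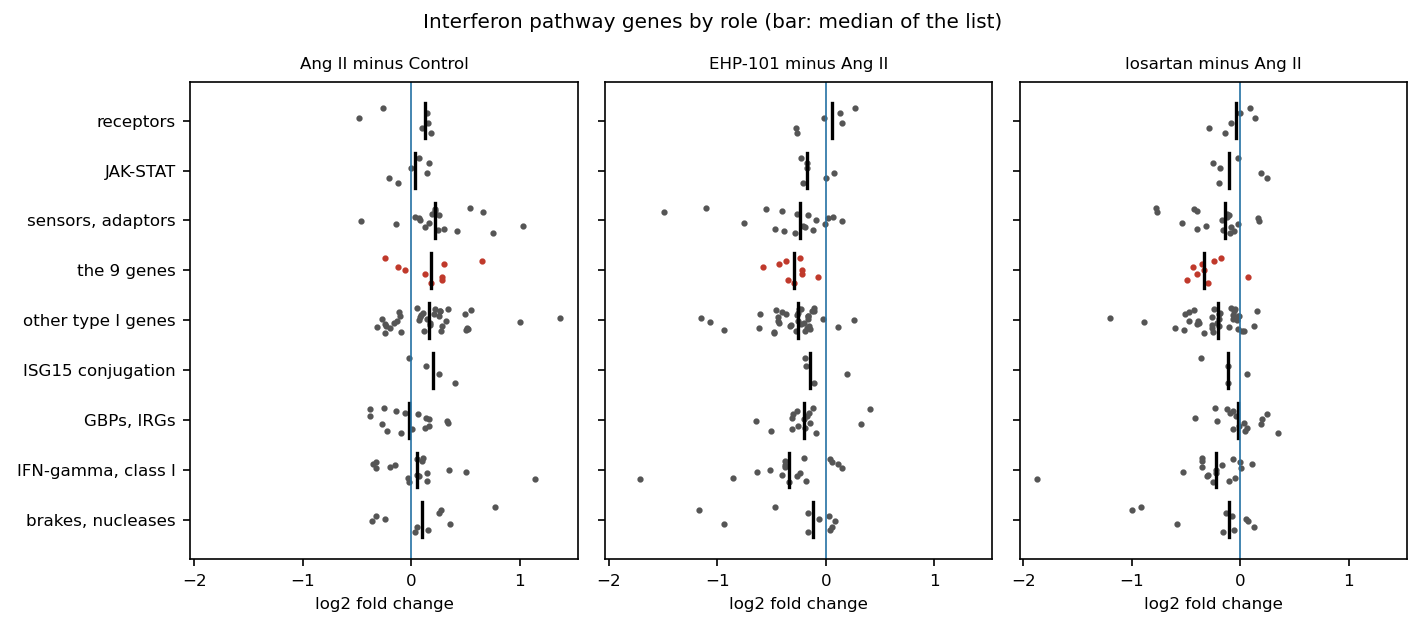
Log2 fold change of each tested gene (point) in the lists of interferon pathway genes, ordered by role, with a bar at the list median, in 3 comparisons that share the Ang II libraries; red points are the 9 genes. List medians lie between -0.02 and 0.22 for Ang II against Control, between -0.33 and 0.06 for EHP-101 against Ang II and between -0.33 and -0.02 for losartan against Ang II.

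Markers of other cell types were read in the same libraries. In bulk heart RNA, fewer cells of a type and less RNA per cell cannot be told apart. Of 10 T and NK cell markers, 4 had enough reads to be tested, and their median log2 fold changes were 0.85 for Ang II against Control, -0.99 under EHP-101 and -0.58 under losartan. None of the 4 was called (edgeR). At an unadjusted p under 0.05, 1 was lower under EHP-101, as were 5.11% of all tested genes, and 0 passed in the other 2 comparisons. The summed level of all 10 was 3.77 to 4.80 CPM in Control, 5.23 to 7.50 in Ang II, 2.71 to 4.51 in EHP-101 and 3.44 to 5.31 in losartan. Cd3e, Cd8a and Ncr1 were each at 0 in 1 library. This low sum correlated with the members' joint level at r = 0.83 over the 12 libraries. B cell markers summed to 17.5 to 22.6 CPM in Control, 20.0 to 30.6 in Ang II, 6.36 to 14.9 in EHP-101 and 15.8 to 33.9 in losartan, with r = 0.67.
All 10 macrophage markers were tested, and for Ang II against Control 5 were above 0 with a median of 0.02. Against Ang II, 9 were below 0 under EHP-101 and 8 under losartan, with medians of -0.56 and -0.50. Against Control the medians were -0.60 under EHP-101 and -0.35 under losartan. Their summed level of 368 to 441 CPM in Control, 383 to 476 in Ang II, 182 to 356 in EHP-101 and 284 to 403 in losartan correlated with the members at r = 0.10. Monocyte markers summed to 157 to 279 CPM in Control, 190.02 to 286 in Ang II, 86.0 to 158 in EHP-101 and 133 to 198 in losartan. They had medians of 1.36 for Ang II against Control, -1.55 under EHP-101 and -0.87 under losartan, and r = 0.32. Lyz2 alone had a mean of 160 CPM over the 12 libraries, so most of the monocyte sum was that gene. Among the monocyte markers Ccr2, the chemokine receptor of recruited monocytes, was called for Ang II against Control, at 2.04 on the log2 scale with an adjusted p of 0.0390 in edgeR. The call was lost without any 1 of 7 libraries, among them Control 2, without which the value was 1.79 with an adjusted p of 0.151 in edgeR. It was also lost in limma-voom (adjusted p of 0.0576), with no filter (0.110 in edgeR) and with only the 2 groups (0.156 in edgeR). For EHP-101 against Ang II, Ccr2 was at -1.60, with an adjusted p of 0.328 in edgeR and of 0.0143 in DESeq2. Of 8 dendritic cell markers 7 were tested, with medians of 0.53 for Ang II against Control, -0.41 under EHP-101 and -0.08 under losartan. None of them was called in these comparisons (edgeR). The dendritic cell markers summed to 28.8 to 36.5 CPM in Control, 34.5 to 44.3 in Ang II, 36.9 to 44.5 in EHP-101 and 34.4 to 45.1 in losartan, with r = 0.38. Zbtb46 alone had a mean of 29.6 CPM over the 12 libraries, so most of this sum was that gene. Neutrophil markers summed to 4.13 to 9.94 CPM in Control, 8.22 to 13.5 in Ang II, 3.81 to 14.03 in EHP-101 and 5.31 to 17.3 in losartan, with r = -0.20 and Ly6g at 0 in 11 libraries.
Fibroblast markers summed to 1061 to 1584 CPM in Control, 2064 to 3141 in Ang II, 1895 to 2296 in EHP-101 and 1331 to 1927 in losartan, with r = 0.34. Of these, Col1a2 was called for Ang II against Control, at 1.87 on the log2 scale with an adjusted p of 0.0381 in edgeR. The call was lost without any 1 of 8 libraries, among them Control 2, without which the value was 1.55 with an adjusted p of 0.0908 in edgeR. It was also lost with no filter (0.0900 in edgeR) and with only the 2 groups (0.208 in edgeR). For losartan against Ang II, Col1a2 was at -1.22, with an adjusted p of 0.316 in edgeR and of 0.0378 in DESeq2. Ventricular and common cardiomyocyte markers were abundant in all libraries. None was called in the comparisons with Ang II (edgeR), and their summed ranges overlapped between the groups. They summed to 60476 to 68144 CPM in Control, 50142 to 60536 in Ang II, 58235 to 69030 in EHP-101 and 57232 to 64845 in losartan. Of 8, 7 were below 0 for Ang II against Control with a median of -0.36 and 4 at an unadjusted p under 0.05, while 8 and 7 were above 0 for EHP-101 and losartan against Ang II, with medians of 0.21 and 0.24. Their sum correlated with the members' joint level at r = -0.55. Endothelial markers summed to 984 to 1222 CPM in Control, 1187 to 1307 in Ang II, 1027 to 1284 in EHP-101 and 960 to 1406 in losartan, with r = 0.55. Atrial markers were uneven, from 67.5 CPM in losartan 3 to 2835 CPM in Ang II 1, and had medians of 0.79 for Ang II against Control, -1.78 under EHP-101 and -1.13 under losartan. Their correlation with the members was 0.43. Beyond the genes named, DESeq2 and limma-voom called no further gene of the pathway lists in the 3 comparisons that use Ang II, and limma-voom with sample quality weights called 18 pathway genes beside the members for Ang II against Control and 6 for losartan against Ang II. The part of these cell types and of the atrial share in the members' values was not tested.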

How the data were processed

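The authors deposited raw counts of reads per gene in 1 table with a column for each of the 12 heart libraries. Per the labels' protocols, RNA was extracted with Qiazol, 300 ng of it went into the TruSeq kit v2, which selects poly(A) RNA and keeps no strand, and single-end reads of 50 bases were sequenced. Per the submitters' processing notes, fastp 0.20.0, HISAT2 2.1.0, featureCounts 2.0.0 and edgeR 3.30.0 were used with GRCm38. How reads that map to several places were counted is not given in the sources used here. Titles of control samples include the phrase Ang II control. Their treatment label reads Control, and the saline comes from the series' design text.

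Symbols and positions were taken from GENCODE M21 for 47224 of 47729 genes. In R 4.3.3, edgeR 4.0.16 removed genes with few counts by filterByExpr, which left 15336, scaled by TMM and fitted 1 mean per group to all libraries by robust quasi-likelihood (common biological coefficient of variation 0.189). Tests are two-sided F tests. The SE is the absolute log2 fold change divided by the square root of F, so it restates the test, and intervals use the t quantile. Log2 CPM had a prior count of 2. Alternatives were DESeq2 1.42.0, limma-voom (limma 3.58.1) with and without sample quality weights, scaling by RLE factors or by library size alone, other count filters, a replicate block, a fit to only the 2 groups, and each library left out. The fit was tested on simulated data.

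The members, the gene lists and the tests were chosen with earlier results of these data known. The text names all members. Of each pathway list it names up to 4 genes past the threshold, or otherwise up to 3 with the smallest unadjusted p in the comparisons with Ang II, and the 10 genes with patterns most like the members (mean of at least 1 CPM). Always named are Ifnb1, Ifng, Ifnar1, Ifnar2, Stat2, Irf9, Mx1, Ifi44, Oas1a and Cxcl10, and 1 further gene is not reported here. Genes that overlap or share sequence with members, and marker genes are named outside this rule. RefSeq promoter windows (GRCm38.p6) were found for 8 of 9 members, and Usp18 is named only.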

Additional observations from a re-analysis of the deposited data

How the results depend on the processing

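No member was called in any comparison under RLE factors, library size alone, limma-voom, either other filter (none, or at least 5 CPM on average), the replicate block, only the 2 groups compared or any left-out library. DESeq2 called 1 member for Ang II against Control (Rsad2), and limma-voom with sample quality weights called 3 there (Rsad2 at an adjusted p of 0.0021, Ifit1 at 0.0374 and Ifit2 at 0.0335) and 1 in the test among the 4 groups. The cause was not tested. Members had 83 to 1392 reads in a library, and with 3 libraries a group the 95% intervals were wide, such as -1.17 to 0.01 for the log2 fold change of Isg15 under EHP-101 against Ang II.

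The count of all genes called moved more. For Ang II against Control it was 83 in edgeR, 505 in DESeq2, 52 in limma-voom, 2599 with quality weights, 167 with no filter, 20 with only the 2 groups and 8 to 151 with 1 library left out, lowest without Ang II 1 or Ang II 3 and highest without Ang II 2. For EHP-101 against Ang II it was 0, with 60 in DESeq2, 10 with no filter and 3 with only the 2 groups. For losartan against Ang II it was 0, with 108 in DESeq2, 609 with quality weights, 30 with no filter, 1 with only the 2 groups and up to 3 with 1 library left out. For EHP-101 against losartan it was 0, with 25 in DESeq2, 2 with quality weights, 3 with no filter and up to 2 with 1 library left out. For EHP-101 against Control it was 61, with 22 by library size alone, 492 in DESeq2, 477 with quality weights, 158 with no filter, 36 with the replicate block, 14 with only the 2 groups and 5 to 62 with 1 library left out, lowest without Control 1 or Control 3. For losartan against Control it was 0, with 22 in DESeq2 and 4 with quality weights. Among the 4 groups it was 29, with 14 by library size alone, 567 in DESeq2, 2052 with quality weights, 189 with no filter, 9 with the replicate block and 3 to 31 with 1 library left out, lowest without Ang II 1.

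Among the alternative values of the members' fold changes, 1095 kept their sign and their side of the threshold, 4 passed the threshold and 35 changed sign, none of them called. For Ang II against Control, library size alone gave 0.087 for Isg15 and 0.15 for Irf7, and quality weights gave 0.22 and 0.19. With 1 library left out, Isg15 ranged from -0.25 to 0.15 and Irf7 from -0.26 to 0.19. Ifit2 under losartan against Ang II was -0.060 by library size alone and -0.018 with quality weights, and under EHP-101 it ranged from -0.13 to 0.016 with 1 library left out. For EHP-101 against losartan, Gbp2 was -0.017 by library size alone, -0.016 in limma-voom, -0.00877 with quality weights, -0.00155 with a mean of at least 5 CPM and -0.021 with the replicate block. With 1 library left out, that comparison ranged from -0.11 to 0.15 for Gbp2, -0.35 to 0.067 for Isg15, -0.085 to 0.27 for Irf7, -0.26 to 0.030 for Oasl2 and -0.23 to 0.016 for Rsad2. Against Control, quality weights gave 0.049 for Ifit1 and 0.045 for Ifit3 under EHP-101 and 0.0017 for Ifit3 under losartan. Left-out libraries gave -0.14 to 0.039 for Ifit1, -0.26 to 0.0058 for Ifit3, -0.31 to 0.058 for Oasl2 and -0.22 to 0.047 for Gbp2 under EHP-101, and -0.23 to 0.14 for Oasl2 under losartan. The value of 0.0058 for Ifit3 was that without Control 2. Among pathway genes, Irf9 and Cmpk2 for Ang II against Control were 0.053 and 0.098 by library size alone, Cmpk2 was 0.010 with quality weights and -0.18 to 0.017 with 1 library left out, and Ifi44 under losartan against Ang II was -0.56 to 0.11. Library size alone moved the median of all genes by 0.17 for Ang II against Control and by -0.15 and -0.12 for EHP-101 and losartan against Ang II.

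Deviations from the group means correlated at -0.33 to 0.33 over 18 pairs of libraries with the same replicate number, 5 of them above 0.1. Over 36 pairs with different numbers they correlated at -0.37 to 0.31, with 10 above 0.1. The medians were 0.012 and 0.0057. Of 12 libraries, 6 had their best correlate in another group at their own number. These values do not settle whether the numbers mark pairs. With the replicate block, 0 members were called in all comparisons and Socs3 for Ang II against Control had an adjusted p of 0.0799 in edgeR.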
